A study of Mus musculus with 28 samples.

Results

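Ear skin of 10 mice that received both the HSP90 inhibitor RGRN-305 and the phorbol ester TPA (TPA+RGRN-305) was compared with ear skin of 4 mice that received vehicle only, to describe which part of the TPA response was still present under the inhibitor. The comparison took 14 of the 28 RNA sequencing libraries of the study, 1 per mouse, chosen by their labels alone, and all 18991 genes with enough counts to be tested. The remaining libraries came from 10 mice given TPA without the inhibitor and 4 given RGRN-305 without TPA, and are shown where they place a value. All mice were wild-type female C57BL/6J animals of 6 to 8 weeks. RGRN-305 at 1 mg per ear, or acetone, was put on the ear 100 min before TPA at 2.5 µg per ear, or acetone, and a 4 mm biopsy was taken 4 hours after the challenge. Vehicle mice thus received acetone at both steps, and the TPA+RGRN-305 mice differed from them in both agents, so that the effect of either agent cannot be read from this comparison alone. The study used 2 independent experiments, and the labels do not say from which one a mouse came.

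TPA mimics diacylglycerol and activates protein kinase C. In the epidermis this leads through the kinases of the ERK pathway to transcription factors of the AP-1 family, and through the kinases that phosphorylate IκB to NF-κB, and both switch on chemokines, cytokines and ligands of the epidermal growth factor (EGF) receptor within hours. HSP90 is a chaperone that keeps many kinases of these pathways folded, and its inhibition is known to release the transcription factor HSF1 and to raise heat shock genes.

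The total count was 16751780 to 20240796 per vehicle mouse and 17435116 to 23619586 per TPA+RGRN-305 mouse. Whole biopsies were sequenced, so that fewer cells of a type and less RNA per cell cannot be told apart. Keratinocyte, fibroblast, cartilage and muscle markers were present in every mouse. The summed level of interfollicular keratinocyte markers was 38900 to 43230 CPM with vehicle and 38240 to 45890 with TPA+RGRN-305. CPM are counts relative to the effective library size, which is the library total multiplied by its TMM scaling factor. Some libraries stood apart. Transcripts of growing hair follicles exceeded 60 CPM in 4 of the TPA+RGRN-305 mice (1, 2, 6 and 9) and in no vehicle mouse. The library of TPA+RGRN-305 mouse 6 had 0.538 CPM of Xist, against 396 to 743 in all others, with Y-linked transcripts within the range of the others. Vehicle mouse 3 was above the other vehicle mice in many of the genes below, and TPA+RGRN-305 mouse 10 was the highest of its group in most of them. Values without these libraries are given where they matter.

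Under TPA plus the inhibitor, 6 of 11 CXC chemokines, 15 of 31 cytokines and 27 of 28 early response genes tested were higher than with vehicle. These lists were chosen with earlier results of these data known. In edgeR's quasi-likelihood test, 2197 genes were higher and 1933 were lower than with vehicle at an adjusted p under 0.05 (11.6% and 10.2% of the genes tested). Most of these differences were small: 1316 of the higher and 1272 of the lower genes had an absolute log2 fold change below 0.5. The study counted a gene as differentially expressed (DEG) when, besides an adjusted p under 0.05, its log2 fold change exceeded 1 in size and its normalized counts averaged more than 50. By these limits 224 genes were higher (1.18%) and 16 were lower (0.0843%). Without the limit on the mean count, 339 genes were higher and 117 lower by more than 1 on the log2 scale, 103 and 8 of them by more than 2. Normalized counts of all 10 mice lay above those of all 4 vehicle mice for 191 of the 224 DEGs, and for 1250 (6.58%) of all genes tested. Below all vehicle mice lay 9 of the 16 lower DEGs and 797 (4.2%) of all genes, or 1227 of all genes without vehicle mouse 3. Without vehicle mouse 3 there were 247 higher and 15 lower DEGs, and without TPA+RGRN-305 mouse 10 there were 201 and 16. Leaving out vehicle mouse 1 left 8 lower DEGs, and leaving out vehicle mouse 4 left 1171 genes lower at the adjusted p. Without the 7 libraries with hair follicle transcripts, 259 and 12 were called, 221 and 8 of them among the DEGs above.

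**Figure D1:**
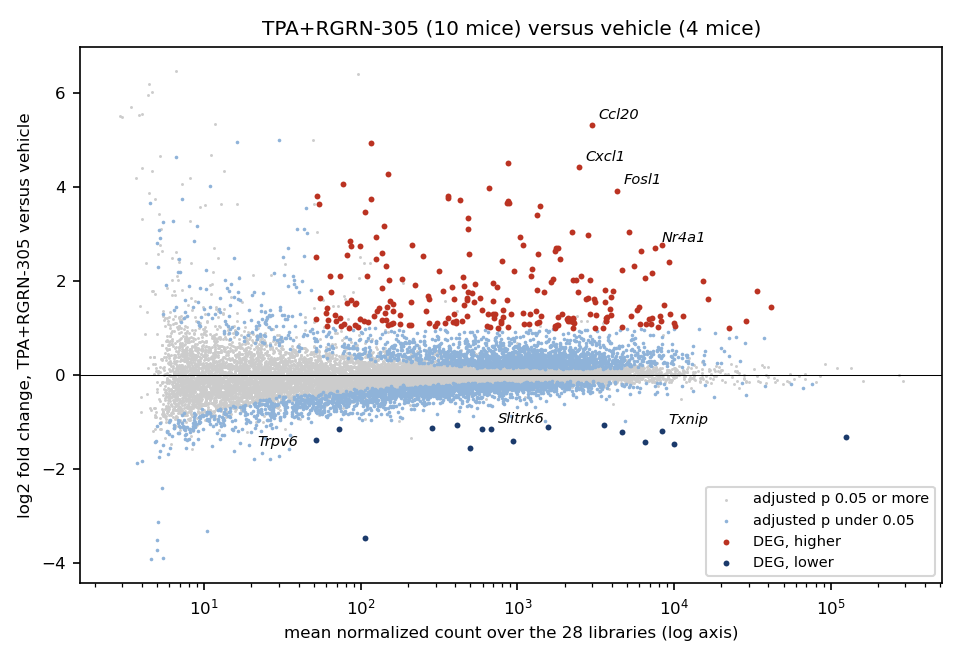
Log2 fold change of TPA+RGRN-305 (10 mice) versus vehicle (4 mice) against the mean normalized count over the 28 libraries, on a log axis, with 1 point per gene tested. The 224 DEGs that were higher spread up to 5.32 (Ccl20), whereas the 16 lower DEGs lie mostly just beyond -1.

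The 224 higher DEGs had a median log2 fold change of 1.51 against vehicle. The same genes had a median of 3.51 in TPA mice against the same vehicle mice, and the TPA+RGRN-305 mice lay at a median of -2.10 against TPA mice. These comparisons share libraries, so their values are set side by side as a description. Over all genes tested the medians were -0.017, -0.029 and 0.019. Scaling by library totals alone moved the fold changes of TPA+RGRN-305 against TPA mice by a median of 0.26. It moved those of TPA against vehicle by -0.29 and those of TPA+RGRN-305 against vehicle by -0.029.

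**Figure D2:**
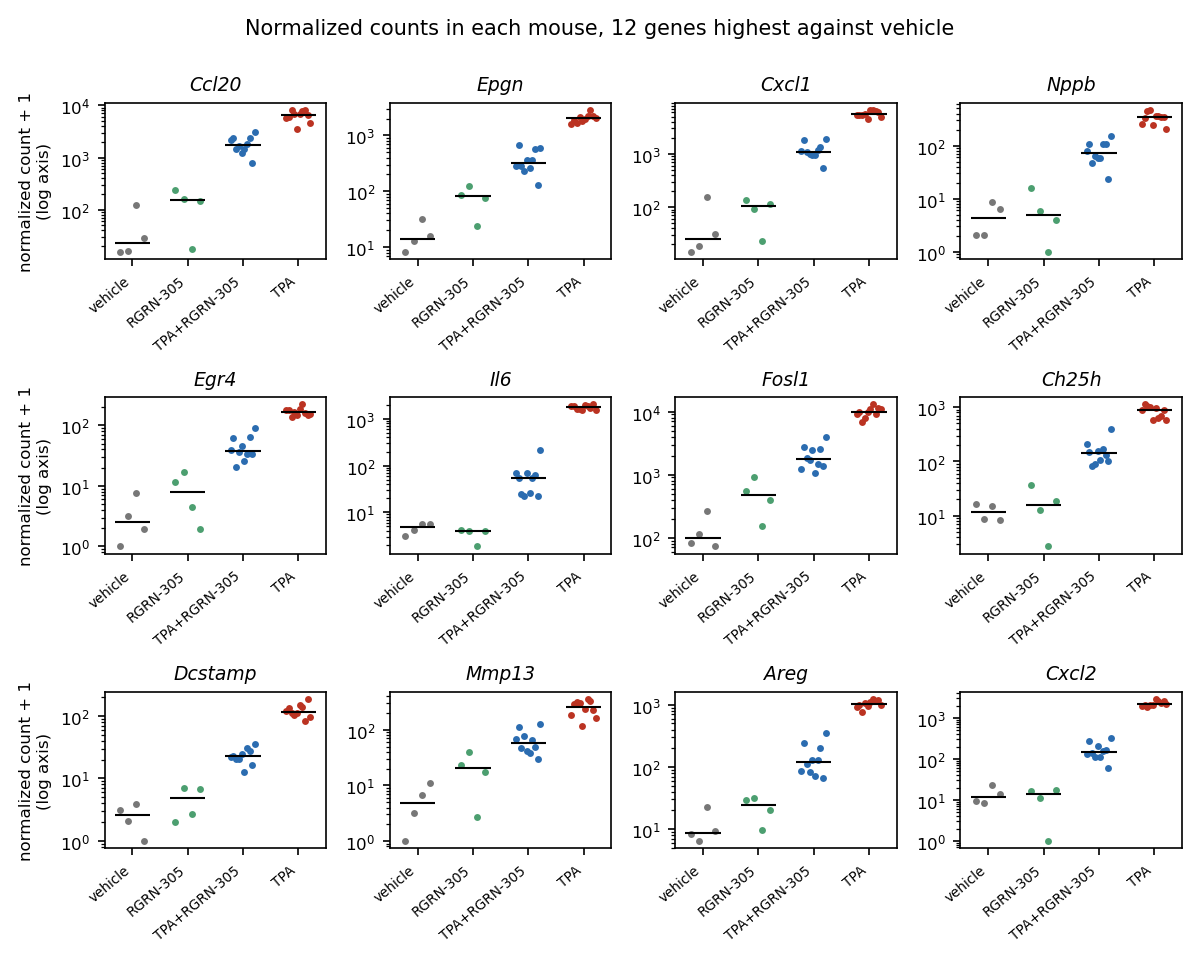
Normalized counts plus 1, on log axes, of the 12 protein-coding DEGs with the largest increase over vehicle among those whose groups did not overlap. Each point is a mouse and each line a group median. In each of the 12 genes the 10 TPA+RGRN-305 mice lie above the 4 vehicle mice and below the 10 TPA mice in their median, for Ccl20 at 1736 normalized counts between 21.7 and 6651.

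The promoters of 5 of the 12 genes with the largest increase are shown, chosen from those that hold a match to a motif searched. Nppb, Egr4, Ch25h and Cxcl2 of the same 12 genes also had matches and are not shown. Whether any factor acts through these matches was not tested. Epgn, Fosl1 and Dcstamp, among the same 12 genes, had no match to any motif searched. Each sequence gives the 250 bases before the transcription start of the canonical GENCODE transcript on GRCm39, written 5′ to 3′ on the strand of the gene. Capitals mark matches, on either strand, to the AP-1 motif TGANTCA, the cyclic AMP response element TGACGTCA, the NF-kB motif or the CArG box that serum response factor binds. Ccl20 (chr1:83094237-83094486, plus strand) and Cxcl1 (chr5:91038844-91039093, plus strand) have an NF-kB match, in Cxcl1 a pair of overlapping ones. Il6 (chr5:30217862-30218111, plus strand) has an AP-1 match far from the start and an NF-kB match near it. Mmp13 (chr9:7272264-7272513, plus strand) has an AP-1 match. Areg (chr5:91287201-91287450, plus strand) has a cyclic AMP response element.
Ccl20: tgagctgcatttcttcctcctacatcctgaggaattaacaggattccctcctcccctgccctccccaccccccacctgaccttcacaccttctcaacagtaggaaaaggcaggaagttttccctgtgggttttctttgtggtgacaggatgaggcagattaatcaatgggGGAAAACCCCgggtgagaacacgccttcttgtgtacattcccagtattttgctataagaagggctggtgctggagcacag
Cxcl1: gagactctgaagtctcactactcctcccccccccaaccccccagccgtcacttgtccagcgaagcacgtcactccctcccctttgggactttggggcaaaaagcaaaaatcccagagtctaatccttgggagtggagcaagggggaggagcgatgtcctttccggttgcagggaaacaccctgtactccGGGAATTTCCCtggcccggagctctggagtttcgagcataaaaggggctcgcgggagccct
Il6: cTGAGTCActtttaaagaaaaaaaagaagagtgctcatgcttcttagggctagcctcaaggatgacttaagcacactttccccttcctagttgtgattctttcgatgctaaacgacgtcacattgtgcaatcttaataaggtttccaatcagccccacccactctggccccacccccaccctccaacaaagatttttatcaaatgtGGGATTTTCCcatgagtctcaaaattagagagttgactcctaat
Mmp13: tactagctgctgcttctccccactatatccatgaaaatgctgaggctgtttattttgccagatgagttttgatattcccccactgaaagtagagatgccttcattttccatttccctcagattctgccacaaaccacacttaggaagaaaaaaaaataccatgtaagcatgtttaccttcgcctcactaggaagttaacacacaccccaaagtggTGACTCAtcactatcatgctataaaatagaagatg
Areg: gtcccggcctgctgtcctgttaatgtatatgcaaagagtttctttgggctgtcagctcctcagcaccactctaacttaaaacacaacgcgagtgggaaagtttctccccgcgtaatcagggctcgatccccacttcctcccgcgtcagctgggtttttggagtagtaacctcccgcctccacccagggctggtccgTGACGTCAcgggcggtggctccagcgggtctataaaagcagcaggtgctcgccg
In the same 250 bases the AP-1 motif was found in 32 of the 203 protein-coding DEGs that were higher (15.8%) and in 771 of the 15101 protein-coding genes tested (5.11%). The NF-kB motif was found in 38 (18.7%) against 1305 (8.64%), and the cyclic AMP response element in 12 (5.91%) against 276 (1.83%). The CArG box was in 2 (0.985%) against 169 (1.12%). The heat shock element bound by HSF1, written as 3 alternating GAA and TTC units spaced by NN, was in 0 of these DEGs and in 53 (0.351%) of all. These shares are a description of letters in a short window. Copies within gene families such as Sprr2 share promoter sequence and are not independent.

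Chemokines that attract neutrophils, monocytes and T cells were among the genes with the largest increases. Ccl20 (chr1:83094487-83096888), the ligand of CCR6 on T cells and dendritic cells, had 14.5, 15.2, 121 and 28.2 normalized counts in the 4 vehicle mice and 773 to 3104 (median 1736) in the TPA+RGRN-305 mice. No TPA+RGRN-305 mouse overlapped with a vehicle mouse, and vehicle mouse 3 was well above the other controls. Its log2 fold change of 5.32 ± 0.56 (SE, adjusted p = 3.46e-07, edgeR) was the largest of all DEGs, and it was 6.54 without vehicle mouse 3. Cxcl1 (chr5:91039094-91040974), a neutrophil attractant acting on CXCR2, had 13.5, 17.4, 153 and 30.0 counts with vehicle and 533 to 1907 (median 1093) with TPA+RGRN-305. Again all 10 mice were above all controls, at a log2 fold change of 4.43 ± 0.47 (adjusted p = 3.81e-07), or 5.83 without vehicle mouse 3. For Cxcl2, which acts on the same receptor, 8.3, 7.61, 21.8 and 12.7 counts stood against 60.6 to 329.9 (median 148), a log2 fold change of 3.70 ± 0.47 (adjusted p = 4.26e-06). These genes kept unequal parts of the TPA level: against TPA mice the log2 fold change was -1.81 for Ccl20, -2.27 for Cxcl1 and -3.75 for Cxcl2. Cxcl3, close to them in sequence and function, had a total of 3 counts over all vehicle mice and 1.84 to 9.47 normalized counts with TPA+RGRN-305, against 73.2 to 176 with TPA, and its adjusted p of 0.0129 was 0.0516 without vehicle mouse 1.

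Of 11 CXC chemokines tested, 6 were higher and none was lower, with a median log2 fold change of 0.54 (all genes -0.017). The interferon-induced Cxcl10 was among them (1.43, adjusted p = 0.00278). Of 21 CC and CX3C chemokines 7 were higher and none was lower, with a median of 0.48. The monocyte attractants Ccl2 and Ccl7 had 35.4 to 201 and 35.4 to 227 counts with vehicle and 298 to 1256 (median 518) and 326 to 1654 (median 659) with TPA+RGRN-305. Their log2 fold changes were 2.70 ± 0.43 (adjusted p = 7.46e-05) and 2.72 ± 0.45 (adjusted p = 9.63e-05), and without vehicle mouse 3 they were 3.52 and 3.39. Their neighbour Ccl12, a mouse ligand of CCR2, had 22.8, 14.1, 25.5 and 4.54 counts with vehicle and 51.4 to 222 (median 103) with TPA+RGRN-305. The 10 mice did not overlap with the controls (2.85 ± 0.52, adjusted p = 0.000248), and they overlapped with the TPA mice, 42.5 to 171 (median 89).

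Of 31 interleukins and other cytokines tested, 15 were higher, 8 of them DEGs, and none was lower, with a median of 0.77. Without vehicle mouse 3 the 15 became 12, and without the 7 libraries with hair follicle transcripts 16 were higher and 2 lower. Il6 (chr5:30218112-30224979), the cytokine of the acute phase response, had 2.07, 3.26, 4.73 and 4.54 counts with vehicle, 21.1 to 210.2 (median 53.6) with TPA+RGRN-305 and 1519 to 2038 (median 1815) with TPA. The 3 groups did not overlap. The log2 fold change was 3.99 ± 0.77 against vehicle (adjusted p = 0.000541) and -4.86 ± 0.26 against TPA (adjusted p = 1.58e-14). Il1b, which starts the same response through the interleukin-1 receptor, had 11.4, 18.5, 47.3 and 16.4 counts with vehicle and 98.2 to 858 (median 263) with TPA+RGRN-305. Its log2 fold change of 3.60 ± 0.60 (adjusted p = 0.000124) was 4.22 without vehicle mouse 3. Tnf rose less, with 44.6, 71.8, 139 and 44.5 counts against 92.7 to 223 (median 163) (1.06 ± 0.26, adjusted p = 0.00339), and vehicle mouse 3 lay within the range of the TPA+RGRN-305 mice. The anti-inflammatory Il10 had 0.946 to 5.44 counts with vehicle and 7.75 to 36.8 (median 15.3) with TPA+RGRN-305 (2.55, adjusted p = 0.00086). Il17a and the antimicrobial peptide gene Defb4 had too few counts to be tested. Tnfrsf9, the costimulatory receptor 4-1BB, had 41.5, 32.6, 26.5 and 48.2 counts with vehicle and 56.9 to 103 (median 80.3) with TPA+RGRN-305 (1.07 ± 0.18, adjusted p = 6.44e-05), and RGRN-305 alone gave an overlapping range of 61.4 to 91.6 counts.

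Of 9 endothelial adhesion genes tested, 3 were higher: Sele (E-selectin, 1.96, adjusted p = 0.000261), Icam1 (1.82, adjusted p = 2.06e-05) and Selp (P-selectin, 1.22, adjusted p = 0.00969). Icam1, the ligand of leukocyte integrins, had 479, 519.7, 457 and 364 counts with vehicle and 929.7 to 3077 (median 1498) with TPA+RGRN-305, with no overlap. Of 15 neutrophil markers 8 were higher and none was lower, with a median of 1.80, and the count was 6 without vehicle mouse 3. The summed level of the neutrophil list was 93.4 to 111 CPM with vehicle, 100.4 to 167 with TPA+RGRN-305 and 428 to 599 with TPA. Csf3r, the receptor of granulocyte colony-stimulating factor, had 27, 27.2, 31.2 and 31.8 counts against 46.8 to 274 (median 104) (1.95 ± 0.39, adjusted p = 0.000723). The markers Ly6g, Ngp and Camp had too few counts to be tested, and Trem3 had 0 counts in each vehicle mouse, so that no fold change is given. The calprotectin genes S100a8 and S100a9, which activated keratinocytes express too, had log2 fold changes of 1.80 (adjusted p = 0.0298) and 1.64 (adjusted p = 0.0172). Without vehicle mouse 3 their adjusted p was 0.0804 and 0.054, and without vehicle mouse 1 it was 0.109 and 0.0754.

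The ligands of the EGF receptor, which keratinocytes release after wounding and TPA, were the next class. Epgn (epigen, chr5:91175323-91183074) had 7.26, 12, 30.3 and 14.5 counts with vehicle and 127 to 667 (median 321) with TPA+RGRN-305, without overlap. Its log2 fold change was 4.50 ± 0.52 (adjusted p = 1.07e-06). Areg (amphiregulin) had 7.26, 5.44, 21.8 and 8.18 counts with vehicle and 66.1 to 349 (median 119) with TPA+RGRN-305 (3.73 ± 0.54, adjusted p = 2.13e-05), and 4.35 without vehicle mouse 3. Hbegf, the heparin-binding ligand, had 163, 202, 298 and 159 counts with vehicle and 955 to 3476 (median 1458) with TPA+RGRN-305 (3.04 ± 0.32, adjusted p = 3.46e-07). TPA mice were at 1606 to 2861 counts for Epgn, 756 to 1238 for Areg and 10417 to 15277 for Hbegf, above all TPA+RGRN-305 mice. Of 16 EGF receptor ligands and receptors tested, 7 were higher and 2 were lower, with a median of -0.03. The 2 lower genes, named after their values were seen, were the receptor Erbb3 (-0.37) and the feedback inhibitor Lrig1 (-0.22).

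Early response genes, not all of which encode transcription factors, were higher almost throughout. In the list of EGR, NR4A, IER and KLF genes, 27 of 28 genes tested were higher, 15 of them DEGs, with a median log2 fold change of 1.11, and the exception was Klf5. The same 27 and 1 were counted without vehicle mouse 3, without TPA+RGRN-305 mouse 10 and without the 7 libraries with hair follicle transcripts. Egr4 (chr6:85485678-85490675), a zinc finger factor induced by ERK signaling, had 0, 2.17, 6.62 and 0.909 counts with vehicle and 19.8 to 87.7 (median 36) with TPA+RGRN-305. The log2 fold change was 4.06 ± 0.54 (adjusted p = 3.39e-06), and 5.26 without vehicle mouse 3. Nr4a1 (Nur77), an orphan nuclear receptor, had 551, 637, 2360 and 459 counts with vehicle and 2887 to 12782 (median 6152) with TPA+RGRN-305, where again vehicle mouse 3 stood apart (2.71 ± 0.49, adjusted p = 0.000295; 3.58 without that mouse). Nr4a1 lay only -1.06 from TPA mice, whereas its relative Nr4a3 lay -2.97 from them and 2.03 from vehicle. Ccn1, a matricellular protein and target of serum response factor and YAP, had 749.7, 738, 3448 and 625 counts with vehicle and 2477 to 11865 (median 5247) with TPA+RGRN-305. Its log2 fold change of 2.07 ± 0.42 (adjusted p = 0.000795) was 3.06 without vehicle mouse 3.

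Among AP-1 subunits 7 of 12 were higher and none was lower, with a median of 0.69. Fosl1 (chr19:5497575-5505974), which encodes FRA1, had 80.9, 112, 268 and 71.8 counts with vehicle, 1054 to 4002 (median 1746) with TPA+RGRN-305 and 6892 to 12962 (median 9728) with TPA. All 3 groups were separate, at 3.93 ± 0.46 against vehicle (adjusted p = 1.47e-06; 4.54 without vehicle mouse 3) and -2.28 ± 0.27 against TPA (adjusted p = 4.81e-08). Junb had 2249, 2544, 6901 and 3086 counts with vehicle and 8619 to 19195 (median 10126) with TPA+RGRN-305 (1.62 ± 0.23, adjusted p = 1.59e-05). Jund had 5469, 5589, 7217 and 4652 counts with vehicle and 6548 to 10822 with TPA+RGRN-305 (log2 fold change 0.54 ± 0.12, adjusted p = 0.00197) with vehicle mouse 3 inside the range of the treated mice, and its difference from TPA was -0.05 ± 0.09 (adjusted p = 0.634). Atf3, a stress-induced partner of JUN, had a log2 fold change of 1.77 (adjusted p = 0.0137), and its adjusted p was 0.0573 without vehicle mouse 1 and 0.0618 without vehicle mouse 4.

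Genes that report and restrain ERK activity were the next list. Of 17 dual specificity phosphatases, Sprouty and SPRED genes 11 were higher, 7 of them DEGs, and none was lower, with a median of 0.85. Dusp6, the phosphatase of ERK in the cytoplasm, had 486, 556, 1017 and 573 counts with vehicle and 2584 to 5580 (median 3009) with TPA+RGRN-305. The log2 fold change was 2.33 ± 0.21 (adjusted p = 3.74e-08), against 4.14 in TPA mice. Spry1, an inhibitor of receptor signaling upstream of ERK, had 1078, 1097, 1653 and 979.8 counts with vehicle and 2075 to 3601 (median 2713) with TPA+RGRN-305 (1.15 ± 0.14, adjusted p = 1.59e-06), and its TPA mice had 2005 to 3108. Of 12 ETS factors 5 were higher and 1, Etv1, was lower (-0.35), which lost its call without vehicle mouse 3. The ERK targets Etv4 and Etv5 rose by 1.62 (adjusted p = 3.44e-09) and 0.51 (adjusted p = 0.000499).

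NF-κB subunits and their feedback inhibitors were higher in 17 of 20 cases, 6 of them DEGs, with a median of 0.77, and Birc2 was lower (-0.33). Bcl3, a nuclear partner of the p50 and p52 subunits, had 72.6, 109.8, 125 and 82.7 counts with vehicle and 279 to 1775 (median 766) with TPA+RGRN-305 (3.05 ± 0.40, adjusted p = 6.80e-06). Tnfaip3 (A20), which shuts the pathway off, had 447, 344, 621 and 355 counts against 1305 to 3472 (median 1895) (2.23 ± 0.25, adjusted p = 6.10e-07). In both genes all TPA+RGRN-305 mice lay between the highest vehicle mouse and the lowest TPA mouse.

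In the epidermis, some keratins and envelope proteins of stressed keratinocytes were higher. Krt16, a keratin of wounded and psoriatic epidermis, had 423, 575, 665 and 1053 counts with vehicle and 1647 to 6627 (median 3487) with TPA+RGRN-305 (2.40 ± 0.33, adjusted p = 1.15e-05). Krt6a, a partner of Krt16 in the filament, had 1180.1 to 1786 counts with vehicle and 2742 to 5327 (median 3678) with TPA+RGRN-305 (1.45 ± 0.15, adjusted p = 7.59e-08), and the wound keratin Krt17 had 2869 to 3584 against 5706 to 11592 (median 7574) (1.27 ± 0.15, adjusted p = 1.11e-06). Of 14 keratins 7 were higher and 1, the basal stem cell keratin Krt15, was lower (-0.42). Of 23 cornified envelope genes 11 were higher and 3 were lower, with a median of 0.84. The 3 lower genes were Flg2, Tgm3 and Casp14 (-0.24, -0.46 and -0.24), which act late in differentiation, while the 6 DEGs included the small proline-rich genes Sprr2h (2.58), Sprr1b (2.47) and Sprr1a (2.18). Sprr1a had 637, 594, 627 and 779 counts with vehicle and 1540.4 to 5112 (median 2836) with TPA+RGRN-305 (adjusted p = 5.10e-07). The Sprr2 genes are near-identical, and their reads may be split between copies. Slpi, an epithelial inhibitor of neutrophil elastase, had 70.5 to 144 counts with vehicle and 356 to 1239 (median 624) with TPA+RGRN-305 (2.65 ± 0.31, adjusted p = 1.11e-06).

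Matrix proteases, plasminogen activators and their inhibitors were higher in 12 of 21 cases, 8 of them DEGs, and none was lower (median 0.81). Mmp13 (chr9:7272514-7283331), a collagenase, had 0, 2.17, 5.68 and 10.0 counts with vehicle and 28.5 to 127 (median 56.4) with TPA+RGRN-305 (3.74 ± 0.66, adjusted p = 0.000172), and 4.50 without vehicle mouse 4. Adamts4, which cleaves aggrecan and versican, had 10.4, 10.9, 12.3 and 7.27 counts with vehicle, 52.6 to 278 (median 100.0) with TPA+RGRN-305 and 2610.4 to 4567 (median 3628) with TPA. It kept a log2 fold change of 3.41 ± 0.51 over vehicle (adjusted p = 2.93e-05) while lying -5.04 ± 0.22 from TPA (adjusted p = 1.35e-16). Further genes with the largest increases were Nppb (B-type natriuretic peptide, 4.29 ± 0.60, adjusted p = 1.19e-05), Ch25h (cholesterol 25-hydroxylase, 3.81 ± 0.54, adjusted p = 1.71e-05) and Dcstamp, a fusion protein of osteoclasts and macrophages (3.80 ± 0.46, adjusted p = 4.37e-07). Nppb had 1.04, 1.09, 7.57 and 5.45 counts with vehicle and 22.9 to 149.9 (median 70.9) with TPA+RGRN-305.

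Lists of growth and lipid metabolism also held higher genes. Of 22 ribosome biogenesis factors 18 were higher and none was lower, with a median of 0.50 and 0 DEGs. Rrs1, an assembly factor of the large subunit, led them with 633, 597, 775 and 539.9 counts against 894 to 1649.5 (median 1176) (0.92 ± 0.10, adjusted p = 1.24e-07). Of 11 polyamine genes 7 were higher and 2 were lower, and the 7 became 4 without TPA+RGRN-305 mouse 10 and the 2 became 1 without vehicle mouse 3 or the libraries with hair follicle transcripts. Odc1, the rate-limiting ornithine decarboxylase and a classic TPA target, had 1842, 1545, 1973 and 1751 counts with vehicle and 3052 to 6709 (median 4127) with TPA+RGRN-305 (1.29 ± 0.17, adjusted p = 2.92e-06). Of 15 prostaglandin genes 4 were higher, with Ptgs2 (cyclooxygenase-2) at 31.1, 79.4, 254 and 46.4 against 327 to 1562 (median 687) counts (2.94 ± 0.51, adjusted p = 0.00019; 3.94 without vehicle mouse 3), and Hpgd, which degrades prostaglandins, was lower (-0.55, adjusted p = 0.000802). Cholesterol synthesis and uptake genes were higher in 9 of 18 cases.

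**Figure D3:**
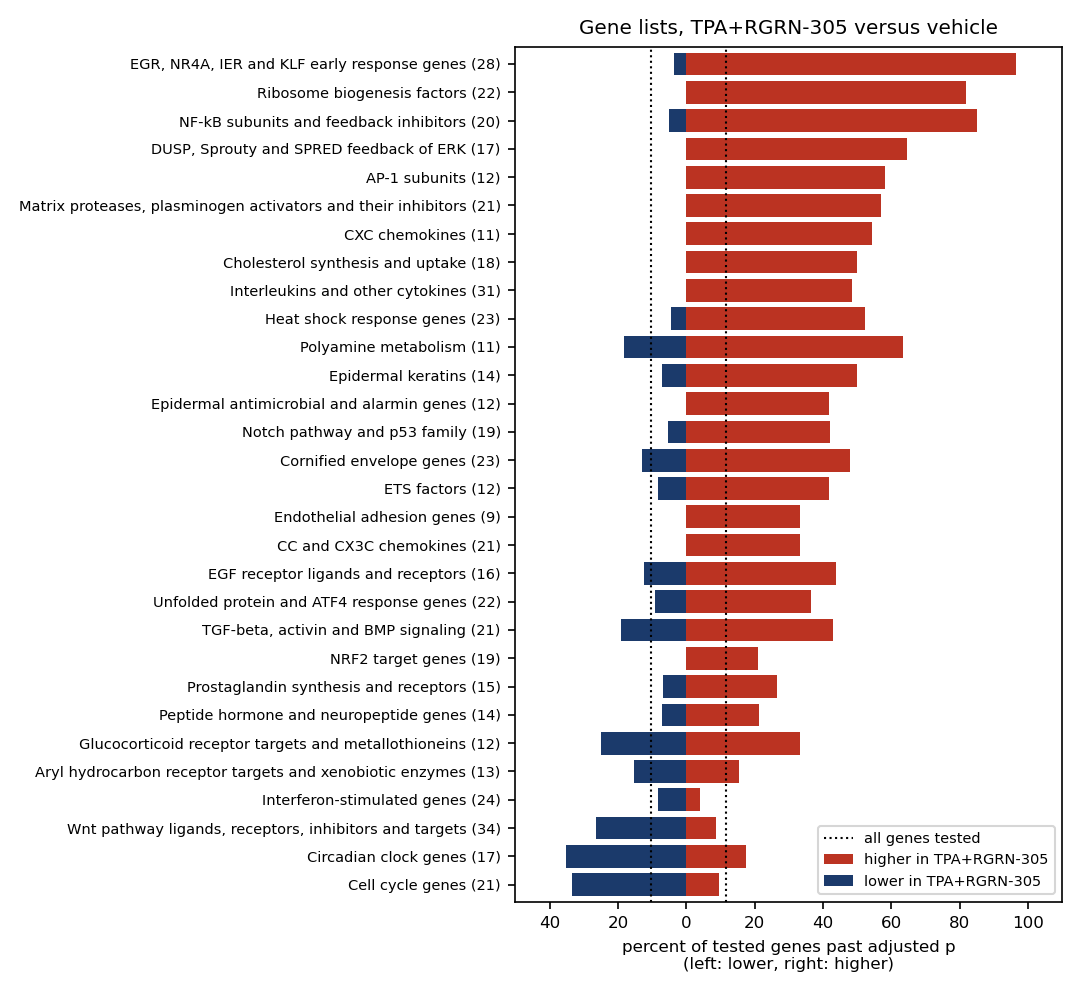
Percent of the tested genes of each of the 30 pathway lists that were higher (right) or lower (left) in TPA+RGRN-305 than in vehicle at an adjusted p under 0.05, with the number tested in brackets. Dotted lines give the shares of all genes tested, 11.6% and 10.2%. The early response list reaches 27 of 28 genes, and the lists of cell cycle, clock and Wnt genes hold more lower than higher genes.

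Of the protein-coding DEGs, 7 had an adjusted p of 0.05 or more against TPA mice, while 6246 (32.9%) of all genes were higher and 6178 (32.5%) lower in TPA+RGRN-305 than in TPA mice, with 511 (2.69%) and 875 (4.61%) DEGs. Besides Ccl12, Etv4 and Spry1 they were Dio2, Wnt10a, Cyp26a1 and Id1. Dio2, the deiodinase that activates thyroid hormone, had 53.9, 43.5, 71.9 and 51.8 counts with vehicle, 115 to 367 (median 205) with TPA+RGRN-305 and 176 to 267 (median 219) with TPA. The difference from vehicle was 2.04 ± 0.29 (adjusted p = 1.24e-05) and that from TPA was 0.07 ± 0.18 (adjusted p = 0.757). Etv4, an ETS factor downstream of ERK, had 198, 163, 161 and 136 counts with vehicle, 407 to 683 (median 491) with TPA+RGRN-305 and 342 to 583 (median 435) with TPA, 0.18 ± 0.09 from TPA (adjusted p = 0.0852). Wnt10a, a Wnt ligand of skin appendages, had 486 to 714 counts with vehicle, 993 to 1427 (median 1204) with TPA+RGRN-305 and 1213 to 1579 with TPA (-0.17 ± 0.08 from TPA, adjusted p = 0.0536). The retinoic acid hydroxylase Cyp26a1 was 1.04 ± 0.33 from vehicle (adjusted p = 0.0226) and overlapped with the controls, and its adjusted p was 0.0542, 0.0632 and 0.0822 without vehicle mouse 1, 3 or 4. Id1, a BMP target, was 1.00 ± 0.19 from vehicle (adjusted p = 0.000385) and -0.26 ± 0.13 from TPA (adjusted p = 0.0876). An adjusted p above the threshold does not show that these levels equal those of TPA mice. Against RGRN-305 alone, Dio2 lay at 0.93 (adjusted p = 0.016, edgeR), and RGRN-305 alone lay 1.11 from vehicle, not past the adjusted p. Ccl12, Etv4, Spry1, Wnt10a, Cyp26a1 and Id1 lay at 1.91, 1.34, 0.87, 0.73, 1.56 and 0.81 from RGRN-305. Scaling by library totals alone, which moves these differences by about 0.26, put Dio2 at 0.32, Etv4 at 0.44 and Spry1 at 0.47 from TPA (adjusted p = 0.107, 0.000105 and 0.000191).

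A small set lay outside both reference groups. In 15 genes (0.079% of those tested) all 10 TPA+RGRN-305 mice were above every vehicle and every TPA mouse, with both adjusted p under 0.05 and a mean normalized count above 50, and in 10 genes (0.0527%) they were below. Of the 15 genes, 4 belong to Notch signaling, in which a ligand on 1 cell releases the intracellular domain of the receptor on its neighbour. The share of Notch genes among all genes tested was not counted, so the 4 are a description. The receptor Notch1 (chr2:26347915-26406675) had 2629, 3035, 2524 and 2504 counts with vehicle, 3332 to 4567 (median 3580.2) with TPA+RGRN-305 and 1618 to 2188 (median 1985) with TPA. It was above vehicle by 0.47 ± 0.09 (adjusted p = 0.000164) and above TPA by 0.89 ± 0.06 (adjusted p = 3.73e-14). The ligand Jag2 had 4726, 5861, 5087 and 4944 counts with vehicle, 6050.1 to 7082 (median 6282) with TPA+RGRN-305 and 2362 to 3049 (median 2806) with TPA, 0.31 ± 0.08 from vehicle (adjusted p = 0.00706). The target Hes1, a transcriptional repressor, had 761, 935, 1120 and 736 counts with vehicle, 1139 to 1644 (median 1294) with TPA+RGRN-305 and 679.7 to 924 (median 786) with TPA, 0.59 ± 0.10 from vehicle (adjusted p = 2.86e-05). Nrarp, a feedback inhibitor of the pathway that was named after its values were seen, had 1414 to 1830.5, 1934 to 2464 and 1473 to 1847 counts in these groups (0.42 ± 0.07 from vehicle, adjusted p = 6.62e-05). RGRN-305 alone gave 2602 to 3727 counts of Notch1 and 875 to 972 of Hes1, so that the Notch1 range overlapped with that of TPA+RGRN-305 and the Hes1 range did not. Of the whole list of 19 Notch and p53 family genes, 8 were higher (42.1%, against 11.6% of all genes tested). In the same list 1, Mesp2, was lower (-0.93), or 2 without the libraries with hair follicle transcripts (5.26% in the main fit, against 10.2%).

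The other genes above both groups included Nrg2, a ligand of ERBB receptors, with 129.6, 166, 174 and 124 counts with vehicle, 235 to 346 (median 272) with TPA+RGRN-305 and 85.6 to 129 (median 112) with TPA (0.93 ± 0.12 from vehicle, adjusted p = 1.24e-06). The inducible HSP70 gene Hspa1b was above both by 0.41 and 0.42 (adjusted p = 0.000173 and 5.33e-08), but at 7921 to 9979 with RGRN-305 alone against 8174 to 11158 with TPA+RGRN-305. Below both groups lay Ikzf4 (Eos), a zinc finger factor, with 165, 168, 212 and 221 counts with vehicle, 116 to 158 (median 127) with TPA+RGRN-305 and 320.4 to 496 (median 434) with TPA. Arg2, the mitochondrial arginase, had 105, 90.2, 105 and 108, 43.8 to 86.3 (median 71.6) and 89.5 to 147 (median 114) counts in the same order. The epidermal factor Klf5 had 3685, 3637, 4285 and 3543, 2416 to 3016 (median 2849.9) and 3161 to 4399.5 (median 3919), -0.45 ± 0.07 from vehicle (adjusted p = 2.76e-05) and -0.48 ± 0.06 from TPA (adjusted p = 2.73e-09). With scaling by library totals alone, 35 genes lay above both and 4 below both, with 8 and 4 shared with the sets above. Notch1, Hes1, Nrarp and Nrg2 were among the shared genes and Jag2, Arg2, Klf5 and Ddit4 were not, although each kept its direction against TPA (1.48, -0.57, -0.22 and -0.40).

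**Figure D4:**
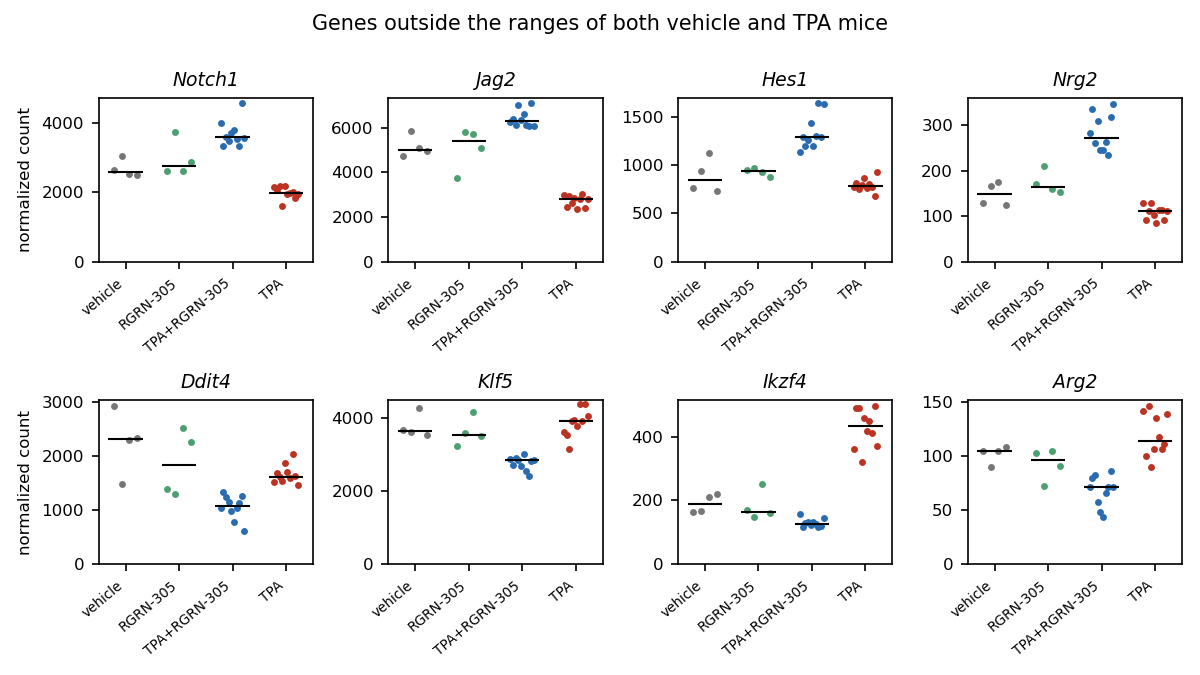
Normalized counts per mouse, on linear axes from 0, of 8 genes in which the TPA+RGRN-305 mice lay above (upper row) or below (lower row) all vehicle and all TPA mice. Each point is a mouse and each line a group median. Notch1 lies at 3332 to 4567 with TPA+RGRN-305, above 2504 to 3035 with vehicle and 1618 to 2188 with TPA.

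Of the 16 lower DEGs, 9 were protein-coding, and 7 of these had groups that did not overlap. Trpv6, an epithelial calcium channel, had 107, 119.6, 133 and 138 counts with vehicle and 32 to 77.1 (median 46.7) with TPA+RGRN-305 (-1.38 ± 0.17, adjusted p = 4.37e-07), and 2.31 to 10.6 with TPA. Sostdc1, an inhibitor of BMP and Wnt signaling, had 492, 590.4, 525 and 709 counts against 177 to 336 (median 275) (-1.12 ± 0.12, adjusted p = 4.49e-08), and the forkhead factor Foxq1 1114, 1308, 1537 and 1242 against 389.9 to 789 (median 586) (-1.15 ± 0.14, adjusted p = 1.70e-06). Both lay further down in TPA mice, at -3.20 and -3.15 from vehicle. Slitrk6, a neuronal membrane protein, was at -1.16 ± 0.11 from vehicle (adjusted p = 2.76e-08).

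The remaining ones are induced by glucose or glucocorticoid signals or restrain growth. The thioredoxin-interacting protein gene Txnip had 19744, 9856, 17305 and 16590 counts with vehicle and 4446 to 8804 (median 7283) with TPA+RGRN-305 (-1.18 ± 0.17, adjusted p = 1.14e-05). Its relative Arrdc3 was at -1.05 ± 0.13 (adjusted p = 7.22e-07). The mTOR inhibitor Ddit4 (REDD1) had 2911, 1482, 2289 and 2336 counts with vehicle, 608 to 1332 (median 1078) with TPA+RGRN-305 and 1454 to 2026 (median 1614) with TPA, and was thus lower than in either group (-1.10 ± 0.17 from vehicle, adjusted p = 5.28e-05; -0.66 ± 0.14 from TPA, adjusted p = 0.000164). Tsc22d3 (GILZ), a glucocorticoid receptor target, was at -0.97 (adjusted p = 0.000158). Among 12 glucocorticoid receptor targets and metallothioneins 4 were higher and 3 were lower. The 2 other protein-coding genes among the lower DEGs, A2m and Lars2, overlapped with vehicle. Lars2 was at -1.46 (adjusted p = 0.00496, or 0.0501 without the 7 libraries with hair follicle transcripts). The ribosomal RNA gene Rn18s-rs5 was lower too (-1.32, adjusted p = 0.00813, or 0.0596 without vehicle mouse 1). The other lower DEGs were the miRNA genes Gm55094 (-1.56), Mir6236 (-1.43) and Gm55118 (-1.22), the lncRNA Gm15564 (-1.41), Gm48878 (-1.14) and an identifier without an annotation match (-3.46). Against RGRN-305, Gm48878 passed the adjusted p, and Lars2, Rn18s-rs5 and the rest of these did not. What such transcripts reflect was not tested.

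The lists of cell cycle, clock and Wnt genes held more lower than higher genes. Of 21 cell cycle genes 7 were lower and 2 were higher (median -0.31). Mki67, the proliferation marker, had 1085, 1412, 1268 and 1838 counts with vehicle and 785 to 1203 (median 994) with TPA+RGRN-305 (-0.49 ± 0.12, adjusted p = 0.00359). This rested on vehicle mouse 4, the highest control, without which the adjusted p was 0.0641, and 0.0971 for Ccna2 (cyclin A2, -0.55) and 0.168 for Plk1. Of 17 clock genes, whose median was 0.02, 6 were lower, such as Per3 (-0.55, adjusted p = 0.000544), and 3 were higher, among them Nfil3 (1.01, adjusted p = 0.00139) and Bhlhe40 (0.98, adjusted p = 6.96e-07). Of 34 Wnt genes 9 were lower and 3 were higher (median -0.11). Wnt16 had 63.3, 83.7, 68.1 and 94.5 counts against 12.3 to 38.6 (median 24.4) (-1.57 ± 0.21, adjusted p = 1.70e-06).

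Heat shock genes, which HSP90 inhibition is known to raise, were higher in 12 of 23 cases and lower in 1, with a median of 0.27 and 0 DEGs. The list had a median of 0.53 for TPA against vehicle. TPA+RGRN-305 lay at a median of -0.28 from TPA and 0.06 from RGRN-305. Its summed level was 3203 to 3406 CPM with vehicle and 3494 to 3901 with RGRN-305 alone. It was 3507 to 4209 with TPA+RGRN-305 and 4403 to 5126 with TPA. Which agent moved the list was not tested. The inducible cytosolic HSP90 gene Hsp90aa1 had 913, 1019, 1008 and 1011 counts with vehicle, 1123 to 1713 (median 1283) with TPA+RGRN-305 and 2202 to 2966 (median 2618) with TPA. It was 0.40 ± 0.09 from vehicle (adjusted p = 0.00141) and -1.0 ± 0.07 from TPA (adjusted p = 7.47e-15), and RGRN-305 alone gave 1029.7 to 1537 (median 1159). Dnajb1, an HSP40 co-chaperone and HSF1 target, had 1795, 1852, 2107 and 1813 counts with vehicle, 2472 to 3851 (median 2828) with TPA+RGRN-305 and 7197 to 8894 (median 7791) with TPA (0.62 ± 0.09 from vehicle, adjusted p = 7.87e-06). The other HSP90 genes Hsp90ab1, Hsp90b1 and Trap1 were -0.05, -0.13 and -0.09 from vehicle (adjusted p = 0.546, 0.152 and 0.209). Hsf2 was lower (-0.44, adjusted p = 0.000535). Of other stress lists, 8 of 22 unfolded protein and ATF4 genes were higher and 2 lower, with Atf4 itself at 0.80 (adjusted p = 2.63e-06). NRF2 targets were higher in 4 of 19 cases, led by Srxn1 (0.84, adjusted p = 0.000796), and the count was 2 without vehicle mouse 3.

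The other pathway lists held both higher and lower genes or few that passed the test. Of 13 aryl hydrocarbon receptor targets and xenobiotic enzymes 2 were higher and 2 were lower. Among 24 interferon-stimulated genes 1 was higher, the transcription factor Irf1 (1.09, adjusted p = 0.000423), and 2 were lower, Ifit3 (-0.66) and Cmpk2 (-0.59, with an adjusted p of 0.125 without vehicle mouse 2). TGF-β, activin and BMP genes were higher in 9 of 21 cases and lower in 4, or 2 without vehicle mouse 3, with the activin antagonist Fst at 1.30 (adjusted p = 4.37e-07). Antimicrobial and alarmin genes were higher in 5 of 12 cases, and in 3 without vehicle mouse 3. Of 14 peptide hormone and neuropeptide genes 3 were higher and 1, the receptor gene Npbwr1, was lower (-0.96, adjusted p = 7.03e-06).

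RGRN-305 alone offered a second control that carried the inhibitor. Against it, 1634 genes were higher (8.6%) and 1007 lower (5.3%) in TPA+RGRN-305 mice, with 152 (0.8%) and 8 (0.0421%) DEGs. The 224 DEGs of the comparison with vehicle had a median log2 fold change of 1.15 against RGRN-305 and of 0.37 for RGRN-305 against vehicle. These values share libraries. RGRN-305 mice 1, 2 and 4 had 194, 193 and 202 of the 224 genes above the vehicle mean, and RGRN-305 mouse 3 had 127. Vehicle mice 1 to 4 themselves had 84, 97, 175 and 80. The 224 genes were chosen as higher than these vehicle mice, which favours values above the vehicle mean in any other group, so these counts are a description. No gene differed between RGRN-305 and vehicle at an adjusted p under 0.05 in edgeR, with 1777 genes at an unadjusted p under 0.05. At the adjusted p alone, DESeq2 called 14 higher and 5 lower, and 4 of the higher ones met the DEG limits. The higher ones included Epgn (2.29, adjusted p = 0.00715, DESeq2) and Fosl1 (1.95, adjusted p = 0.0457, DESeq2). The study, which used DESeq2 and its DEG limits, named Epgn, Fosl1, Tnfrsf9 and Rpl27-ps1 as the only genes that differed with RGRN-305 alone. Its number is thus to be set beside the 4 DEGs and not beside the counts at the adjusted p alone. Gene by gene, the values against both controls are set side by side. For Cxcl2 the value against RGRN-305 was 4.03 (adjusted p = 7.20e-06), near that against vehicle, whereas for Epgn it was 2.28 (adjusted p = 0.000348) instead of 4.50, for Fosl1 2.01 (adjusted p = 0.00121) instead of 3.93, and for Mmp13 1.73 (adjusted p = 0.0187) instead of 3.74. Tnfrsf9 lay 0.05 from RGRN-305 (adjusted p = 0.885).

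Markers of most other cell types did not pass the test. Fibroblast, growing hair follicle, adipocyte, skeletal muscle and erythrocyte markers had 0 of 13, 21, 12, 16 and 6 genes past the adjusted p, although hair follicle markers had a median of 3.59, with the 4 mice named above over 60 CPM, and the summed erythrocyte level was 160 to 256 CPM with vehicle and 210 to 619 with TPA+RGRN-305. Of monocyte and macrophage markers 1 of 17 was higher, Cd14 (0.62, adjusted p = 0.00869). Mast cell markers had 1 of 12 higher, the histidine decarboxylase gene Hdc (0.91, adjusted p = 8.69e-05). Langerhans and dendritic cell markers had 4 of 13 higher, and 2 without vehicle mouse 3. Cd207 (langerin) had 485, 357, 469 and 393 counts with vehicle and 558 to 1130.1 (median 844) with TPA+RGRN-305, where the groups were separate (1.05 ± 0.16, adjusted p = 4.05e-05). T cell markers had 2 of 13 lower, Schwann cell markers 3 of 11, cartilage markers 2 of 13 and melanocyte markers 1 of 10, with 0 higher in these lists. Without vehicle mouse 3, T cell and cartilage markers had 1 lower each. Without TPA+RGRN-305 mouse 10, cartilage markers had 6 lower. Without the 7 libraries with hair follicle transcripts, Schwann cell and cartilage markers had 1 lower each, and cartilage, adipocyte and hair follicle markers had 1 higher each. The hair follicle list also had 1 higher gene without TPA+RGRN-305 mouse 10. Interfollicular keratinocyte markers had 3 of 13 higher, and sebaceous markers 2 of 14 higher and 1 lower, or 2 lower without TPA+RGRN-305 mouse 10.

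The TPA+RGRN-305 mice varied in how far these genes lay above the controls. The SD of log2 values over the 10 mice had a median of 0.44 for the 224 DEGs and 0.19 for all genes tested, against 0.34 and 0.14 over the 4 vehicle mice. TPA+RGRN-305 mouse 10 had the highest value of its group in 183 of the 224 DEGs and mouse 9 the lowest in 95, with median differences from the vehicle mean of 2.21 and 1.05 (log2 of count plus 1). The other 8 mice lay between 1.13 and 1.69. All 10 mice were below the TPA mice, whose medians were 3.47 to 3.75. Each TPA+RGRN-305 mouse had at least 222 of the 224 genes above the vehicle mean, a difference for which these genes were chosen. The genes with the largest SD among protein-coding DEGs were C2cd4b, Stfa2, Il19, Krt90, Atf3 and Il6. C2cd4b, a gene induced in endothelium by inflammation, had 0.918 to 66.0 counts over the 10 mice, and vehicle mice had a total of 2 raw counts, so that no fold change is given. Mouse 10 was the highest for C2cd4b, Il6 and Atf3. Il19, a cytokine of the interleukin-10 family, had 0, 0, 0.946 and 4.54 counts with vehicle and 2.58 to 62.3 (median 14.7) with TPA+RGRN-305. The call of Krt90 was lost in 11, that of Il19 in 3 and that of Stfa2 in 2 of the 14 fits that left out 1 mouse.

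**Figure D5:**
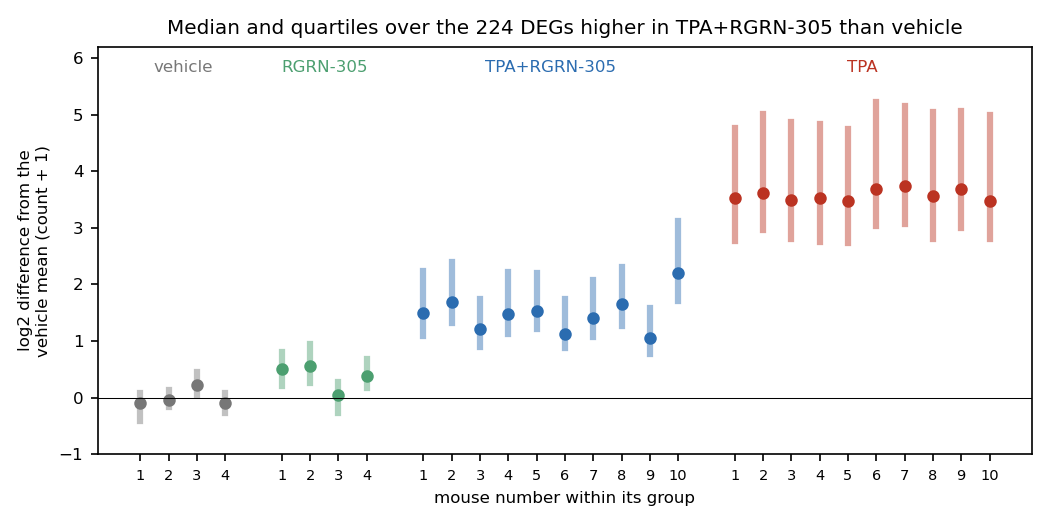
Median (point) and quartiles (bar) of the log2 difference from the vehicle mean, over the 224 DEGs higher in TPA+RGRN-305 than in vehicle, for each of the 28 mice (vehicle, RGRN-305, TPA+RGRN-305 and TPA). The genes were chosen from this contrast, so that the distance between vehicle and TPA+RGRN-305 mice is a description. TPA+RGRN-305 medians run from 1.05 in mouse 9 to 2.21 in mouse 10 and TPA medians from 3.47 to 3.75.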

How the data were processed

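Whole-ear RNA was prepared with a strand-specific library kit and sequenced in pairs. Per the study's methods and the submitters' processing notes, the authors aligned the reads to GRCm39 and deposited raw counts of uniquely aligned, unambiguous reads per gene (Subread 2.10.3 in R). The strand setting of the counting is not given in the sources used here, and near-identical copies lose reads under unique alignment. Of 55414 gene identifiers, 54749 were matched to a GENCODE annotation, and the 665 others held 0.0567% of counts.

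Genes were kept with filterByExpr (minimum count 10, minimum total 15), scaled by TMM and tested with edgeR 4.0.16 (R 4.3.3) by the robust quasi-likelihood F test in 1 fit over all 28 libraries, with Benjamini-Hochberg adjustment over 18991 genes. The SE is the absolute log2 fold change divided by the square root of F. A normalized count is the count scaled to the mean effective library size. The DEG limits are those of the study. The replicates are single mice. Where vehicle mice held 3 counts or fewer in all, no fold change is given.

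The members and the 45 lists were chosen with earlier results of these data known. The genes given by name were the 12 non-overlapping protein-coding DEGs with the largest change in each direction, up to 4 genes per list, up to 8 genes beyond both vehicle and TPA in each direction, up to 10 DEGs not past the threshold against TPA, the 6 most variable DEGs, and the HSP90 and study genes. Nrarp, A2m, Lars2, Rn18s-rs5 and the other lower DEGs that are not protein-coding were named after their values were seen. So were single list members that ran against their list. The alternatives were other scalings, no filter, DESeq2 1.42.0, a fit of the 2 groups only, no limit on the mean count, a replicate block and leaving out each mouse. Leaving out the 7 libraries with growing hair follicle transcripts (above 60 CPM) was chosen after seeing the data. Counts of 18616 genes were simulated for TPA+RGRN-305 versus vehicle. Of genes changed 2-fold 97% were called, of those changed 4-fold 100%, and of unchanged genes 0.0426%. The changes were balanced up and down, in 100 genes per fold with a mean count above 50. No batch and no outlying mouse were simulated, so these rates need not hold for the real data.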

Additional observations from a re-analysis of the deposited data

Results flagged for a closer look

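In 105 of the genes named above, single mice stood apart from the rest of their group in 34 of 210 gene and group pairs, with a gap to the nearest mouse beyond Dixon's 95% limit for the group's range. For normal values in genes chosen without regard to them, chance gives about 1 in 20, or 10.5. Here the genes were chosen from these same values, some for a large SD over the TPA+RGRN-305 mice. Genes that move together are also not independent, so the 34 cannot be judged against that rate. Values are normalized counts, each set against the median of the other mice of its group. TPA+RGRN-305 mouse 10 stood apart in 22 of these genes. Among cytokines and chemokines these were Il6 (210 against 52.8), Cxcl10 (53.7 against 24.8), Ccl7 (1654 against 603), Ccl2 (1256 against 478), Il1b (858 against 258) and Il10 (36.8 against 15.2). Among genes of vessels, leukocytes and macrophages they were Ch25h (392 against 129), Sele (441 against 198), Selp (334 against 123), Csf3r (274 against 102), Cd14 (441 against 222) and C2cd4b (66 against 15.6). Among other genes they were Hbegf (3476 against 1455), Junb (19195 against 10061), Dusp6 (5580 against 2965), Srxn1 (1626 against 989), Adamts4 (278 against 93.6), Slpi (1239 against 593), Bhlhe40 (5002 against 3196), Hsp90aa1 (1713 against 1275), Hsp90ab1 (29249 against 25095) and A2m (480 against 243).

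Vehicle mouse 3 stood apart from the other 3 controls in 7 genes, Ccl20 (121 against 15.2), Cxcl1 (153 against 17.4), Areg (21.8 against 7.26), Nr4a1 (2360 against 551), Ccn1 (3448 against 738), Dusp6 (1017 against 556) and Id1 (3183 against 1458). Each of these values lies on the side of the TPA+RGRN-305 mice. The others were Trpv6 in TPA+RGRN-305 mouse 9 (77.1 against 45.1), Il19 in TPA+RGRN-305 mouse 1 (62.3 against 8.64), Ccna2 in TPA+RGRN-305 mouse 3 (376 against 249), Hdc in vehicle mouse 1 (248 against 198) and Hsp90aa1 in vehicle mouse 1 (913 against 1011).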

How the results depend on the processing

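The comparison of TPA+RGRN-305 with vehicle kept its direction in every gene checked, under every alternative in which that gene was tested. Of 3694 such values 147 lost the adjusted p. List members named only because they ran against their list, such as Erbb3 and Birc2, were not checked in this way. Nor were the lower DEGs that are not protein-coding, except Rn18s-rs5. For the counts of genes, no low-count filter gave 1265 lower genes at the adjusted p instead of 1933. No limit on the mean count gave 339 higher and 117 lower DEGs. Without the 7 libraries with hair follicle transcripts, 1530 genes lay below all controls instead of 797. With a single mouse left out, from the vehicle or the TPA+RGRN-305 group, the higher genes at the adjusted p were 1626 to 1961 or 1975 to 2250 and the lower ones 1171 to 1566 or 1696 to 1967. The higher DEGs were 211 to 247 or 201 to 242, and the lower ones 8 to 17 or 15 to 21. The genes above all controls were 1370 to 1643 or 1271 to 1374, and those below were 945 to 1227 or 824 to 979. The share of higher genes among those called was 53.2%, with a range of 46.2% (library totals) to 62.3% (no filter). Library totals gave 10474 higher and 3663 lower genes and 1040 higher DEGs against TPA, and for TPA versus vehicle 3894 and 9964 genes with 950 and 1875 DEGs. DESeq2 called 14 higher and 5 lower genes for RGRN-305 versus vehicle, 4 of them higher DEGs.

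The replicate numbers are shared between the groups. In the 4 same-numbered pairs of vehicle and TPA+RGRN-305 mice, deviations from the group means correlated with r from -0.103 to 0.0456. The other pairs of these groups gave -0.147 to 0.158. So few pairs cannot show whether mice with the same number share an experiment, which the labels do not give. With a replicate block, 1535 genes were higher and 1041 lower, with 197 and 18 DEGs, and 25 of the 176 genes checked lost the adjusted p. With 4 controls, single mice weigh on the result: leaving out a vehicle mouse cost 13 to 17 named genes their call, and leaving out a TPA+RGRN-305 mouse 1 to 4.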
